A study of Homo sapiens with 4 samples.

Results

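The tricarboxylic acid cycle enzymes described here are 9 genes, CS, IDH2, IDH3A, OGDH, SUCLG1, SDHA, SDHB, FH and MDH2, chosen by symbol from the 19749 genes of the authors' deposited table. All 9 were found there and all 9 were tested. The cells were U87, a human glioblastoma line. One group received 5 µM YZ129 for 24 h, a small molecule that the series title connects with the HSP90, calcineurin and NFAT pathway, and the other received its vehicle, DMSO. Each group had 2 libraries of poly(A)-selected RNA, and both grew in DMEM with serum. The labels do not tell whether replicate libraries stem from independent cultures. The p-values therefore reflect library-to-library spread that may be technical.

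The cycle runs in the mitochondrial matrix. It condenses acetyl-CoA with oxaloacetate to citrate and oxidises citrate back to oxaloacetate, and the NADH and reduced flavin it yields feed the respiratory chain. Its intermediates also leave for the cytosol, where citrate is cut to acetyl-CoA for lipid synthesis and isocitrate yields NADPH. In gliomas the cycle is best known for mutations of the isocitrate dehydrogenases, and in other tumours the genes of SDH and of FH act as tumour suppressors.

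The table gives 1 result per gene and no value per library, so the spread within a group is seen only through the standard error (SE). Values below are moderated log2 fold changes, read as YZ129 over DMSO. The direction is not stated in the table, and DMSO stands first in the comparison's name. The reading used here rests on heat shock genes, which the factor HSF1 is known to switch on when HSP90 is inhibited: of 12 such genes 7 were positive and 0 were negative past the threshold, also with 0 negative at an unadjusted p of 0.05, and HSPA6 stood at 2.64 ± 0.23 (SE) in the authors' deposited table, whose columns are those of DESeq2. Under the opposite reading every "fell" becomes "rose", while sizes and p-values stay. The mean level of a gene is a normalized read count. Judging from the lowest levels, which is an inference, it averages 8 libraries, although 4 samples are described. It thus says how abundant a transcript was in the authors' set and not in either group. The SE and p-values may also draw on libraries beyond the 4 described, and which libraries entered them is not known. The label glioblastoma was checked against 6 glioma line markers: VIM and CD44 had mean levels of 298885 and 134994, NES 909, OLIG2 96.2, GFAP 52.2 and SOX2 0.851 in the authors' deposited table. Blood cell and epithelial markers lay between 0.426 and 18.1 where the table lists them.

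IDH2 and SDHA fell with YZ129, and the other 7 enzymes did not pass the threshold of an adjusted p of 0.05. IDH2, the NADP-dependent isocitrate dehydrogenase of the matrix, fell 1.85-fold. SDHA, the flavoprotein that oxidises succinate, fell 1.50-fold. In bulk RNA, fewer cells carrying a transcript and less of it per cell cannot be told apart. No member rose, and 0 had a positive value at an unadjusted p of 0.05 in the authors' table with DESeq2 columns. Across all 14812 tested genes 12.9% passed, 7.64% as falls and 5.24% as rises. Among the 6041 tested genes within the members' range of level, 13.2% passed, 9.25% as falls and 3.94% as rises. With 9 members each gene is a large share of the list, and whether 2 falls exceed this background was not tested. The median of the 9 was -0.21, against -0.05 for all tested genes and -0.10 for those within the same range of level.

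**Figure D1:**
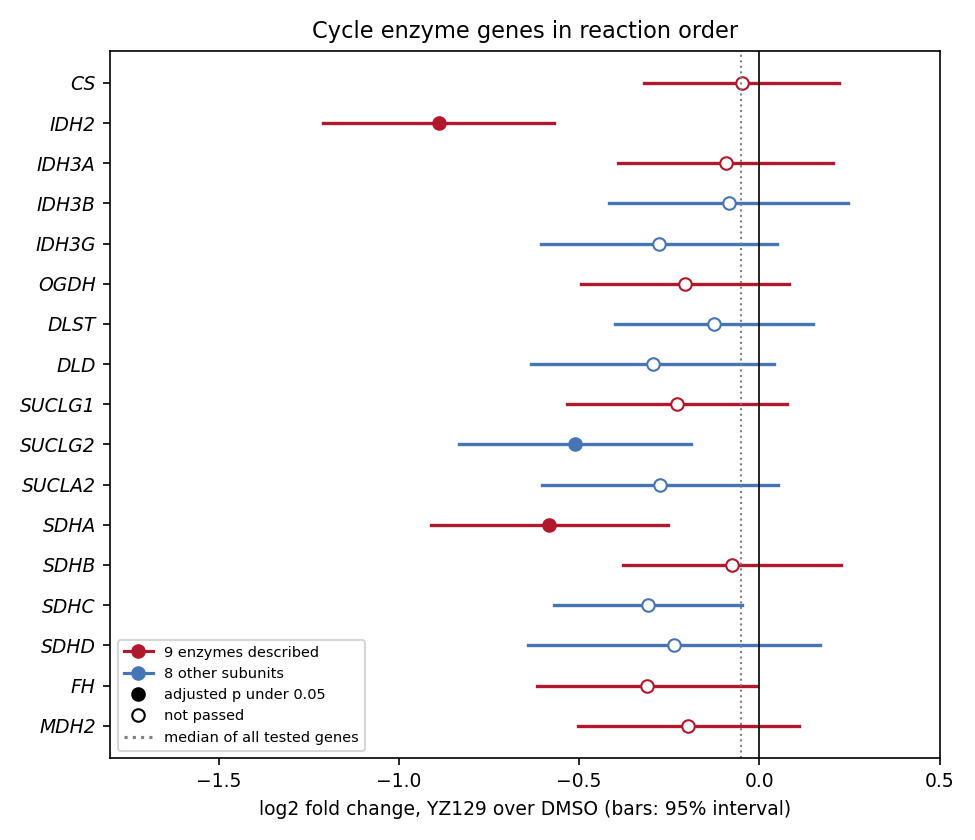
Log2 fold change of each cycle gene, YZ129 over DMSO, on the x axis, with genes in the order of the reactions; bars are 95% intervals from the deposited SE, filled points passed an adjusted p of 0.05, and the dotted line is the median of all tested genes at -0.05. IDH2 at -0.89 lies farthest to the left, SDHA and SUCLG2 are the other filled points, and all 17 points lie below 0.

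The cycle opens with the making of citrate. CS, citrate synthase, condenses acetyl-CoA with oxaloacetate and is the usual reference enzyme for mitochondrial content. Its value of -0.05 ± 0.14 (SE) in the authors' deposited table was the closest to 0 of the 9 members (adjusted p = 0.87, DESeq2 columns), and the 95% interval ran between -0.32 and 0.22. It was also the member with the highest mean level, 9023.

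Isocitrate is oxidised by 2 kinds of enzyme, and IDH2 was the 1 gene called among them in the mitochondrion. IDH2 had -0.89 ± 0.16 (SE) in the authors' deposited table (adjusted p = 3.04e-06), with a 95% interval of -1.21 to -0.57. IDH3A, the catalytic subunit of the NAD-dependent enzyme, had -0.09 ± 0.15 in the authors' deposited table (adjusted p = 0.76). In the authors' deposited table the regulatory subunits IDH3B, at -0.09 ± 0.17, and IDH3G, at -0.28 ± 0.17, did not pass either. The change of IDH2 was lower than that of IDH3A by a difference of -0.80 ± 0.22 (95% interval -1.24 to -0.36). Against IDH3B the difference was -0.80 (-1.27 to -0.34) and against IDH3G -0.61 (-1.07 to -0.15). These intervals take the errors of the 2 genes as independent and are not adjusted for the 12 pairs examined, of which 4 excluded 0. IDH2 overlapped only SDHA and FH in its 95% interval and lay below those of the other 6 members. In the annotation, 60.3% of the exon bases of IDH3A overlap the gene ACSBG1 on the opposite strand. Strand-aware counting was neither stated nor denied in the sources used here. ACSBG1 itself had a mean level of 39.3 in the authors' deposited table, and the part of the overlap in the value of IDH3A was not tested.

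The cytosolic enzyme IDH1, which makes NADPH from isocitrate outside the mitochondrion, fell as well, at -0.56 ± 0.14 (adjusted p = 0.0015) in the authors' deposited table. IDH2 minus IDH1 was -0.33 ± 0.22, with a 95% interval of -0.75 to 0.10 that includes 0. Both NADP-dependent isocitrate dehydrogenases thus passed, and none of the 3 NAD-dependent subunits did. IDH1 was not compared with those subunits, so the calls alone do not separate it from them.

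The 2-oxoglutarate dehydrogenase complex converts 2-oxoglutarate to succinyl-CoA. Its 3 components kept to a narrow range. OGDH, the decarboxylating E1 component, had -0.21 ± 0.15 (95% interval -0.50 to 0.08; adjusted p = 0.41) in the authors' deposited table. DLST, the E2 component, had -0.13 ± 0.14, and DLD, the E3 component shared with pyruvate dehydrogenase, had -0.30 ± 0.17 in the authors' deposited table. OGDH minus DLST was -0.08 (-0.48 to 0.32) and OGDH minus DLD was 0.09 (-0.35 to 0.53), so neither pair could be told apart at this precision. DHTKD1, a relative of OGDH, had -0.10 ± 0.15 in the authors' deposited table, and D2HGDH, which clears D-2-hydroxyglutarate, had -0.18 ± 0.19 there. Neither passed, and 0 had an unadjusted p under 0.05 in that DESeq2-style table.

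Succinyl-CoA ligase is a dimer of the shared alpha subunit SUCLG1 with one of a pair of beta subunits. SUCLG1 had -0.23 ± 0.16 (95% interval -0.53 to 0.08; adjusted p = 0.38) in the authors' deposited table, short of a call. The GTP-forming beta subunit SUCLG2 fell 1.43-fold, at -0.51 ± 0.16 (adjusted p = 0.020), and the ATP-forming SUCLA2 had -0.28 ± 0.17 (adjusted p = 0.30) in the authors' deposited table. SUCLG2 minus SUCLG1 was -0.28 (-0.73 to 0.16) and SUCLG2 minus SUCLA2 was -0.23 (-0.69 to 0.22), so the call of SUCLG2 alone does not separate it from its partners. SUCLG2 lost its call when each change was taken relative to genes of the same level (-0.42, adjusted p = 0.079 by a Benjamini-Hochberg adjustment). Genes of the same level are here those in the same decile of mean level, and their median was subtracted.

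Succinate dehydrogenase, complex II of the respiratory chain, holds the catalytic subunits SDHA and SDHB on the membrane anchors SDHC and SDHD. SDHA fell, at -0.58 ± 0.17 (95% interval -0.91 to -0.25; adjusted p = 0.0071) in the authors' deposited table. SDHB, the iron-sulfur subunit, had -0.08 ± 0.15 (95% interval -0.38 to 0.23; adjusted p = 0.81) in the authors' deposited table. In the authors' deposited table the anchors SDHC, at -0.31 ± 0.13 (adjusted p = 0.11), and SDHD, at -0.24 ± 0.21 (adjusted p = 0.52), did not pass. SDHA minus SDHB was -0.51 ± 0.23, and the 95% interval of -0.95 to -0.06 excluded 0. Against SDHC and SDHD the differences were -0.28 (-0.70 to 0.14) and -0.35 (-0.87 to 0.18), which included 0. The assembly factors gave 0 calls among 4, and 0 at an unadjusted p of 0.05 in the DESeq2-style table: SDHAF2 had 0.01 ± 0.15, SDHAF1 -0.16 ± 0.19, SDHAF3 -0.46 ± 0.30 and SDHAF4 -0.35 ± 0.32 in the authors' deposited table.

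The value of SDHA is uncertain in a way not examined for IDH2 or the other members, since copies were looked for in SDHA alone. SDHA has near-identical copies with which the counting may have split reads. The table lists 3 of its pseudogenes, named here after their values were seen. SDHAP2 rose, at 0.63 ± 0.22 (adjusted p = 0.037), while SDHAP1 had 0.31 ± 0.20 (adjusted p = 0.35) and SDHAP3 -0.07 ± 0.37 (adjusted p = 0.93) in the authors' deposited table. Their mean levels of 274, 246 and 47.0 sum to 13.1% of the SDHA level of 4320. In GENCODE 29 the SDHAP1 and SDHAP2 transcripts aligned to 1986 of the 1992 coding bases of SDHA with 95.6% and 95.7% identity, and SDHAP3 aligned over 726 bases with 97.7%. Of all 50-base stretches of the SDHA coding sequence, 23.5% occur letter for letter in at least 1 of the 3 copies. The sources used here do not say how reads matching several genes were placed. The part of this in the change of SDHA was not tested. A stretch of 120 coding bases of SDHA (bases 1373 to 1492 of its transcript SDHA-201, chromosome 5) and the aligned bases of the copies (SDHAP1 and SDHAP2 on chromosome 3, SDHAP3 on chromosome 5) show how few letters tell them apart. Capitals mark bases that differ from SDHA, of which there are 5, 6 and 2 in SDHAP1, SDHAP2 and SDHAP3.
SDHA: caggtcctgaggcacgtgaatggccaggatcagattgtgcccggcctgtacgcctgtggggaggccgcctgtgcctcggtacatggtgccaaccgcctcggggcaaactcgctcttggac
SDHAP1: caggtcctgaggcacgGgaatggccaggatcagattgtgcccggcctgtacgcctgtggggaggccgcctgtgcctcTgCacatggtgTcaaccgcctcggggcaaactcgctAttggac
SDHAP2: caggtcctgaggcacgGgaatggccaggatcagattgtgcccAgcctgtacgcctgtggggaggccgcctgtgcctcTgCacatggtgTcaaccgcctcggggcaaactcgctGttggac
SDHAP3: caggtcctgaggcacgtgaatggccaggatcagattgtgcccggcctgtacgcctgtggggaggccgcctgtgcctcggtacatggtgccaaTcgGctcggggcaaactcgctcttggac

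The last reactions return fumarate to oxaloacetate. FH, fumarase, hydrates fumarate to malate and had -0.31 ± 0.16 in the authors' deposited table, with an unadjusted p of 0.045 and an adjusted p of 0.19, so it did not pass. Its 95% interval of -0.62 to -0.01 reached almost to 0. MDH2, the malate dehydrogenase of the matrix, had -0.20 ± 0.16 (95% interval -0.50 to 0.11; adjusted p = 0.46) in the authors' deposited table. The cytosolic MDH1, its counterpart in the malate-aspartate shuttle, had -0.30 ± 0.13 (adjusted p = 0.13) there. MDH2 minus MDH1 was 0.10 (-0.30 to 0.51).

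For the 7 enzymes that did not pass, the intervals bound what could have been missed. The SE of the 9 members lay between 0.14 and 0.17, and at the precision of each gene a log2 change of 0.38 to 0.46 in size was needed for a call. The lowest 95% bound among the 7 was -0.62, in FH, and the lowest among the other 6 was -0.53, in SUCLG1. The highest bound of any member was 0.23, in SDHB. A fall as large as that of IDH2 lay outside the interval of all 7. For the other 6, falls of up to those bounds could not be told from no change. The interval of FH, not adjusted for the number of genes, lay just below 0.

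All 9 members had values below 0, and so did 8 other subunits of the cycle that were looked up beside them. Of those 8 partners 1 fell and 0 rose, with 0 rises at an unadjusted p of 0.05 in the DESeq2-style table, and their median was -0.28. A shift of this kind was common among abundant genes, since 65.2% of the tested genes within the members' range of level had values below 0, against 56.0% of all tested genes. Taken relative to the median of all tested genes, 8 of the 9 members stayed below 0 and CS stood at 0.00. Taken relative to genes of the same level, 6 of 9 members and 6 of 8 partners stayed below 0, while CS, IDH3A and SDHB were above it. IDH2 (-0.82, adjusted p = 2.85e-05) and SDHA (-0.47, adjusted p = 0.047) still passed a Benjamini-Hochberg adjustment over all tested genes on that scale, SDHA narrowly. Over all genes the same step turned the split of calls from 1132 falls and 776 rises into 804 falls and 920 rises.

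**Figure D2:**
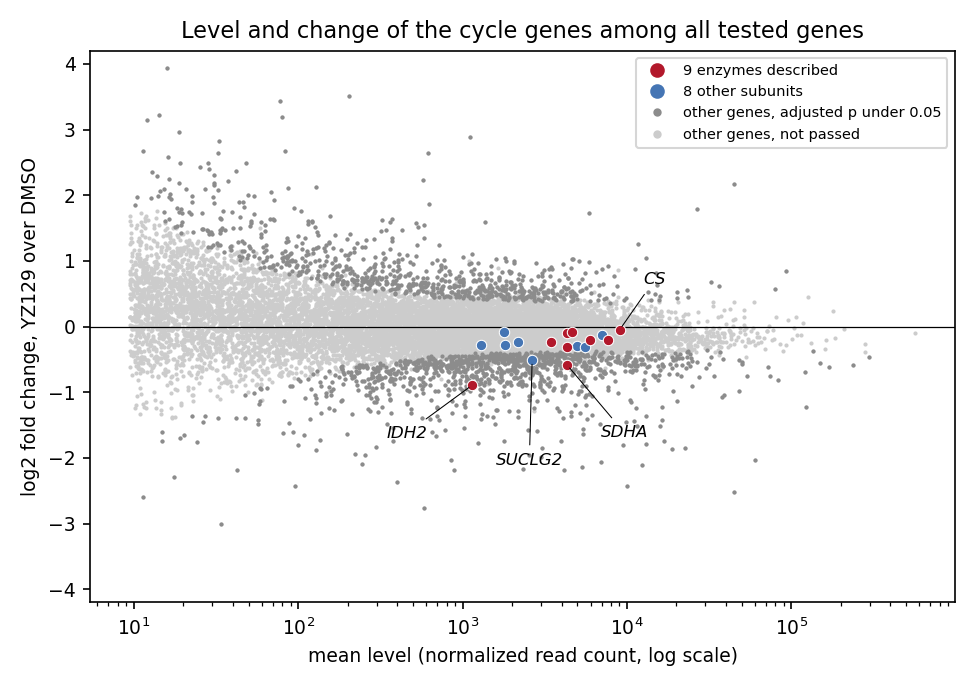
Log2 fold change, YZ129 over DMSO, against the mean level (log axis) for all 14812 tested genes; red points are the 9 enzymes, blue points 8 other cycle subunits, darker grey the other genes with an adjusted p under 0.05. Cycle genes lie between mean levels of 1145 and 9023 and all below 0, with IDH2 the least abundant and the lowest.

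Per length of transcript the members spanned a wide range of abundance. The mean level per kilobase of the principal GENCODE transcript was 3991 for SDHB, 3033 for CS, 2689 for MDH2, 2395 for FH and 2355 for SUCLG1. It was 1837 for OGDH, 1807 for SDHA, 1039 for IDH3A and 425 for IDH2. IDH2 was thus the least abundant of the 9 as well as the one with the largest fall. These levels carry no error, since the table gives 1 mean per gene, so neighbours in this order such as FH and SUCLG1 or OGDH and SDHA cannot be ranked. They also depend on the transcript taken for the length.

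**Figure D3:**
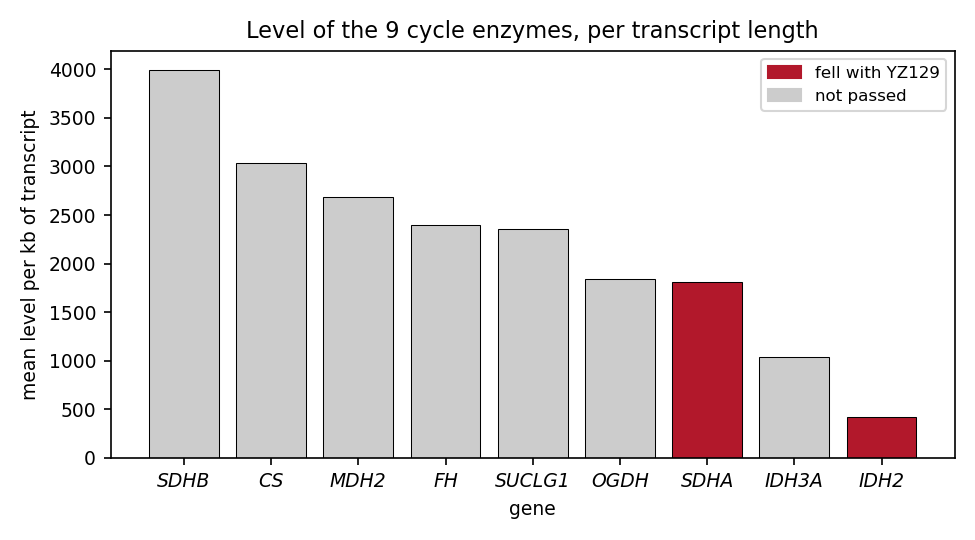
Mean level per kilobase of the principal transcript (bars, from 0) of the 9 enzymes in descending order; red bars fell with YZ129. SDHB at 3991 is the highest and IDH2 at 425 the lowest, and the levels are means over all libraries of the authors' table, with no error.

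Among genes that feed or drain the cycle, the kinase gene PDK1 had a larger fall than any of the 17 cycle genes. Citrate export and the cytosolic counterparts gave 3 falls and 0 rises among 5 genes (median -0.38), with 0 rises at an unadjusted p of 0.05 in the DESeq2-style table. Besides IDH1 these were the citrate carrier SLC25A1, at -0.66 ± 0.16 (adjusted p = 0.00075), and ATP-citrate lyase ACLY, at -0.38 ± 0.14 (adjusted p = 0.043), in the authors' deposited table. ACLY lost its call relative to the median of all tested genes (-0.33, adjusted p = 0.095 by a Benjamini-Hochberg adjustment), and also when all genes with a p-value entered the adjustment (adjusted p = 0.057). The cytosolic aconitase ACO1 missed the threshold in the authors' deposited table, at -0.32 ± 0.13 (adjusted p = 0.093).

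Among 14 genes of pyruvate entry 3 fell and 0 rose, or 5 and 1 at an unadjusted p of 0.05 in the DESeq2-style table, and the median was -0.12. PDK1, a kinase that switches pyruvate dehydrogenase off and a known hypoxia target, fell 3.01-fold, at -1.59 ± 0.17 (adjusted p = 3.77e-19), in the authors' deposited table. Its paralogue PDK3 fell 1.87-fold, at -0.90 ± 0.19 (adjusted p = 0.00010), and the pyruvate carrier subunit MPC2 had -0.47 ± 0.15 (adjusted p = 0.018) in the authors' deposited table. MPC2 lost its call relative to genes of the same level (-0.38, adjusted p = 0.081 by a Benjamini-Hochberg adjustment). Short of the threshold in the authors' deposited table were pyruvate carboxylase PC, at -0.44 ± 0.18 (adjusted p = 0.074), the dehydrogenase subunit PDHB, at -0.35 ± 0.15 (adjusted p = 0.11), and the phosphatase PDP1, at 0.45 ± 0.21 (adjusted p = 0.15).

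Of 12 tested genes of anaplerosis and metabolite shuttles 3 fell and 0 rose, with 5 falls and 0 rises at an unadjusted p of 0.05 in the DESeq2-style table, and the median was -0.28. The dicarboxylate carrier SLC25A10 had -0.60 ± 0.17 (adjusted p = 0.0080), the 2-oxoglutarate carrier SLC25A11 -0.47 ± 0.16 (adjusted p = 0.029) and glutamate dehydrogenase GLUD1 -0.39 ± 0.13 (adjusted p = 0.030) in the authors' deposited table. Relative to the median of all tested genes SLC25A10 was the 1 of these that kept its call, while SLC25A11 (adjusted p = 0.060) and GLUD1 (adjusted p = 0.071 by a Benjamini-Hochberg adjustment) lost theirs. The authors' deposited table also holds, without a call, the aspartate-glutamate carrier SLC25A12, at -0.33 ± 0.14 (adjusted p = 0.12), the mitochondrial PCK2, at -0.40 ± 0.18 (adjusted p = 0.14), and the glutaminase GLS2, at 0.57 ± 0.32 (adjusted p = 0.26).

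Among 8 regulators of mitochondrial gene expression 1 rose and 0 fell, with 0 falls at an unadjusted p of 0.05 in the DESeq2-style table, and the median was 0.10. PPARGC1A, which encodes the coactivator PGC-1alpha, rose 2.11-fold, at 1.08 ± 0.27 (adjusted p = 0.0010), with a low mean level of 149 in the authors' deposited table. Its partner ESRRA had 0.33 ± 0.14 (adjusted p = 0.12), the related coactivator PPRC1 0.24 ± 0.15 (adjusted p = 0.32), TFAM -0.03 ± 0.21 (adjusted p = 0.96) and GABPA -0.03 ± 0.45 (adjusted p = 0.98) in the authors' deposited table. ESRRA passed relative to genes of the same level (0.43, adjusted p = 0.029 by a Benjamini-Hochberg adjustment).

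Glycolytic genes, set beside the cycle, gave 14 falls and 0 rises among 17, with 0 rises at an unadjusted p of 0.05 in the DESeq2-style table. Their median was -0.75, against -0.21 for the 9 cycle enzymes, and no test was made of that difference. Relative to genes of the same level, 13 of the 14 falls kept their call. That decile matches these genes loosely, since most of the 17 lay in the upper part of the highest decile. Their median level was 27216 and their highest 238294. The smallest adjusted p-values were those of the aldolase ALDOC, at -1.48 ± 0.17 (adjusted p = 1.08e-16), and of LDHA, which turns pyruvate into lactate, at -1.22 ± 0.14 (adjusted p = 9.38e-16), in the authors' deposited table. LDHB, the relative of LDHA, named after its value was seen, had -0.17 ± 0.15 (adjusted p = 0.53) in the authors' deposited table.

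**Figure D4:**
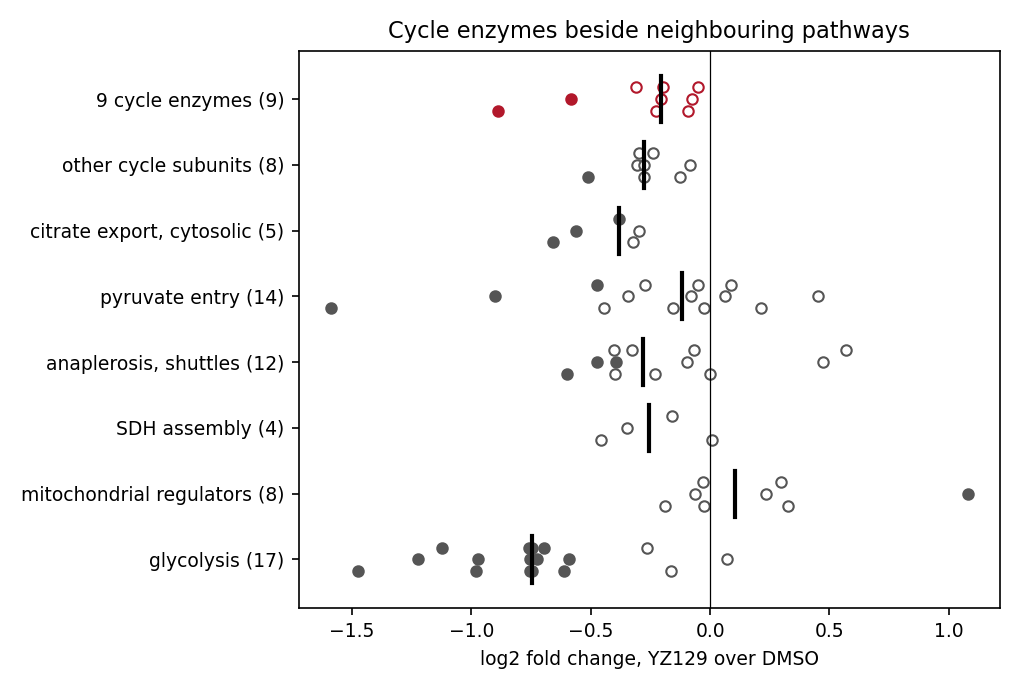
Log2 fold change, YZ129 over DMSO, of each tested gene (points; filled where the adjusted p was under 0.05) in the cycle and in 7 neighbouring lists, with the number of tested genes in brackets and the median as a black bar. The 9 cycle enzymes, in red, have a median of -0.21, the glycolytic genes -0.75, and the filled point on the right is PPARGC1A at 1.08.

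The catalytic subunits of complex II, of which SDHA was called and SDHB was not, are shown with the letters before their RefSeq transcription starts. RefSeq (GRCh38.p14) gives a promoter for 8 of the 9 members, all but OGDH, and the 250 bases before each start were searched on both strands. The window of IDH2 lies 1883 bases from the start of the principal GENCODE transcript and is not shown. It is still counted among the 8 below, although it may not be the promoter of that transcript. Capitals mark TGCGCA, the core of the motif of the factor NRF1, an activator of nuclear genes for mitochondrial proteins. The SDHA window is chr5:218070-218319 on the plus strand and the SDHB window chr1:17054033-17054282 on the minus strand. Their RefSeq starts lie 79 bases (SDHA) and 138 bases (SDHB) from the start of the principal GENCODE transcript.
SDHA: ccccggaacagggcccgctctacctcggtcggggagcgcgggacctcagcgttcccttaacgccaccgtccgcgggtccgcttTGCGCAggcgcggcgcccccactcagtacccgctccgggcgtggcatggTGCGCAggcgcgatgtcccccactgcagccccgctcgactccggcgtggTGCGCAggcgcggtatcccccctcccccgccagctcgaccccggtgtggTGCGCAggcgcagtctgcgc
SDHB: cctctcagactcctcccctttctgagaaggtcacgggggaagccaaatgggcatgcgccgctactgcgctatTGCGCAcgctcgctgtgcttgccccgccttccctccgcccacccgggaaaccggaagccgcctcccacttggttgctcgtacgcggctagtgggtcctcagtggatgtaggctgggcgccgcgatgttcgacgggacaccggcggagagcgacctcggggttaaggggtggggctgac

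The SDHA window held this core 4 times, with no overlap, and the SDHB window 1 time. No other member with a promoter had it, so that it was in 2 of 8, against 6.89% of 35116 promoters of the same length. It was chosen after the windows had been seen, and longer spellings of the NRF1 motif give other counts. The hypoxia response core ACGTG was in 0 of 8 members, against 18.5% of all promoters, and the NFAT core GGAAA in 6 of 8, against 55.6%. The distant IDH2 window was among those 6, with 3 matches. The motif AAGGTCA of the estrogen-related receptors was in 1 of 8, SDHB, against 3.44%. Among the 15 members and partners with a promoter, the NRF1 core was in 5 and the hypoxia response core in 1. The NFAT core was in 9 of these 15 and the estrogen-related receptor motif in 2. The partners with the NRF1 core were IDH3B, IDH3G and SDHD, which were not called. No overlap between different motifs was searched for. A match describes these letters in this window and is not a binding site. Of the 2 members that held the NRF1 core, SDHA was called and SDHB was not. NRF1 itself, named for its motif, had -0.06 ± 0.15 (adjusted p = 0.85) in the authors' deposited table.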

How the data were processed

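Poly(A)-selected RNA of U87 cells was sequenced in 4 libraries, 2 with YZ129 and 2 with DMSO, grouped by their titles. The submitters' processing notes list hg19 and, with no roles given, Cuffdiff, Cufflinks 2.2.1 and TopHat2 2.0.12. The authors deposited 1 table of their comparison, with the columns of DESeq2 per the file headers; its version, the annotation and the counting tool were not given in the sources used here. It holds, per gene, a deposited mean level (a normalized signal), a deposited log2 fold change with its SE, a deposited Wald score, and deposited p-values, raw and adjusted. The score equalled the change over its SE, and the adjusted p a Benjamini-Hochberg adjustment over 14812 genes, which are called tested here. The other 4937, with levels of 9.43 or less, had a p-value but no adjusted p. The lowest levels took 36 distinct values, as 2 reads in 8 libraries would give, and the number 8 was inferred from this. Read totals per library are not known, so depth and counting intervals are not given.

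From these values 95% intervals (change ± 1.96 SE), differences between genes, list counts and medians were computed (Python 3.11.15, pandas 2.3.3, scipy 1.17.1). The deposited adjusted p under 0.05 was the call; the authors' moderation towards 0 understates changes of low genes. The adjustment and the thresholds applied here were run on simulated data, with errors drawn from the deposited SE. The planted changes were larger in size than that of any member, so recovery of changes of the members' size was not examined. The authors' own fit could not be tested this way. Members and lists were chosen with earlier results of these data known. Some genes of the related lists are not reported here. Named were all members and cycle partners, called genes of the other lists and up to 4 further ones by level, and for lists over 12 genes up to 6 of smallest adjusted p. Exceptions are LDHB, NRF1, the SDHA pseudogenes, ACSBG1 and the heat shock genes. The heat shock genes were a later addition, of which HSPA6 alone is named. Alternatives changed the threshold, the genes adjusted over and the centring.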

Additional observations from a re-analysis of the deposited data

How the results depend on the processing

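Each of the 9 members kept its side of the threshold in all 36 combinations with the 4 alternatives of centring and adjustment, and no called gene changed direction. The count of members that fell was 2 in the table, 3 at an unadjusted p under 0.05 and 2 under the other 6 planned settings; it was 1 without SDHA, an alternative chosen after seeing the data. Genes of the related lists that rose numbered 1, against 3 at an unadjusted p under 0.05 and 2 relative to genes of the same level, where ESRRA passed. Those that fell numbered 24, against 31 at an unadjusted p under 0.05 and 18 relative to genes of the same level. Over all tested genes 698 fell and 446 rose at an adjusted p under 0.01, and 2145 fell and 1549 rose at an unadjusted p under 0.05, since these thresholds admit fewer and more genes. Relative to the median of all tested genes 48.1% of calls were falls, and relative to genes of the same level 46.6%, against 59.3% as deposited. No paired analysis was possible because the table holds no value per library; for the same reason no library could be left out, and how much 1 library decides is not known.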
